A study of Homo sapiens with 27 samples.

Results

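U2-OS and BJ are a tumour line and a normal line of mesenchymal origin, and their messenger RNA was compared over 6 of the 27 libraries of the series, which covers 9 established human cell lines with 3 libraries each. U2-OS is an osteosarcoma line, labelled with the tissue bone and grown in McCoy medium with 10% fetal bovine serum. BJ is a line of normal skin fibroblasts, labelled as epithelial tissue and grown in DMEM with 10% fetal bovine serum, so line and medium cannot be told apart. Members were chosen by their labelled cell line alone, and all 3 libraries of each line were used. No treatment is given in the labels for either line. The design text speaks of biological replicates, but how the cultures were kept apart is not stated. The titles carry a P number that the labels do not explain. It was 7, 6 and 5 for U2-OS replicates 1, 2 and 3, against 8, 5 and 6 for those of BJ. The p-values here rest on the spread between libraries of the same line, pooled over all 9 lines. Total estimated counts were 26200910, 24009531 and 26379506 in U2-OS, against 16911521, 26090811 and 24730915 in BJ.

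Osteosarcoma is a bone tumour whose cells can resemble immature osteoblasts, the cells that lay down type I collagen and mineralise it. Fibroblasts of the skin secrete fibrillar collagen, elastic fibres and proteoglycans, pull on that matrix with actin and myosin, and stop dividing after a limited number of passages. U2-OS is widely used as a model of telomerase-independent telomere maintenance and of loss of the cell cycle inhibitor p16, encoded by CDKN2A.

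The 6 libraries were not alike within each line. The mitosis genes of the list used below summed to 6195, 7304 and 6244 TPM in U2-OS, against 3100, 385 and 223 TPM in BJ, for replicates 1, 2 and 3 (TPM is the level of a transcript scaled to its length and to the library total). The fibroblast markers summed to 352, 306 and 297 TPM in U2-OS, against 7207, 14610.0 and 14250.0 TPM in BJ, so BJ replicate 1 was high in mitosis genes and low in these markers among the BJ libraries. It also had the fewest counts, and the authors' effective lengths imply fragments of 252 bases there, against 227.4 and 230.7 bases in the other BJ libraries and 231.2 to 233.7 bases in U2-OS. Cancer-testis genes, high in U2-OS, summed to 2999, 2986 and 3268 TPM in U2-OS, against 0.763, 2.81 and 3.12 TPM in BJ, so BJ replicate 1 had the least of them. U2-OS replicate 3 was the lowest of its line for fibrillar collagens, with sums of 814, 529 and 267 TPM in U2-OS, against 6245, 15380.0 and 12330.0 TPM in BJ. Values of the 3 libraries of a line are given below in the order of replicates 1, 2 and 3, and values without BJ replicate 1 are given for the S phase and mitosis lists and for several genes that it moved.

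Marker genes matched the labelled lines in part. All 8 fibroblast markers reached 1 TPM in BJ and 6 of 8 did in U2-OS, at a summed level far lower in U2-OS. Of 8 osteoblast markers, 5 reached 1 TPM in U2-OS and 4 in BJ, at summed levels of 649.8, 388 and 217.5 TPM in U2-OS, against 1812, 4333 and 2515 TPM in BJ. SP7, a transcription factor needed for osteoblasts, and IBSP, a bone matrix protein, stayed under 0.1 TPM in both lines. Defining markers of endothelial cells and of skeletal muscle were below 1 TPM in both lines, and the keratinocyte markers summed to 21.3, 22.5 and 8.39 TPM in U2-OS, against 0 in every BJ library.

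A gene was called where the adjusted p of edgeR's quasi-likelihood test, over a fit of all 27 libraries, was under 0.05 and the difference at least 2-fold. Of 17220 genes tested, 4280 (24.9%) were called higher in U2-OS and 3430 (19.9%) lower, 44.8% in all. The 10 most abundant genes by mean TPM were EEF1A1, RPL41, RPS27, RPS29, TMSB10, GAPDH, PPIA, ANXA2, RPS23 and MT-CO2 in U2-OS, and EEF1A1, MT-CO1, MT-CO2, LGALS1, TMSB10, ACTB, RPL41, RPS27, COL1A2 and MT-CO3 in BJ. LGALS1, galectin 1, a secreted lectin of mesenchymal cells, stood at 5542, 4203 and 2947 TPM in U2-OS, against 10985, 9737 and 7758 TPM in BJ (log2 fold change -1.69 ± 0.34, adjusted p = 1.3e-04). The spread between libraries was 24.2%, the square root of the common dispersion over all 27 libraries of the 9 lines, not of these 6 alone. HepG2 libraries, with 33.3 to 71.6% mitochondrial counts, are among them. Without that line 4189 genes were higher and 3604 lower. A fit of the 6 libraries alone gave 3801 and 3118. Among called genes 1371 were at least 16-fold higher and 769 at least 16-fold lower. Libraries of the lines did not overlap for 7433 of the 7710 called genes, and for 65.6% of all tested genes. In TPM, 230 genes were at 10 or more in U2-OS and under 0.5 in BJ, and 142 the other way round. Of 6485 genes at 10 TPM or more in both lines, 2854 had means within 1.5-fold of each other.

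**Figure D1:**
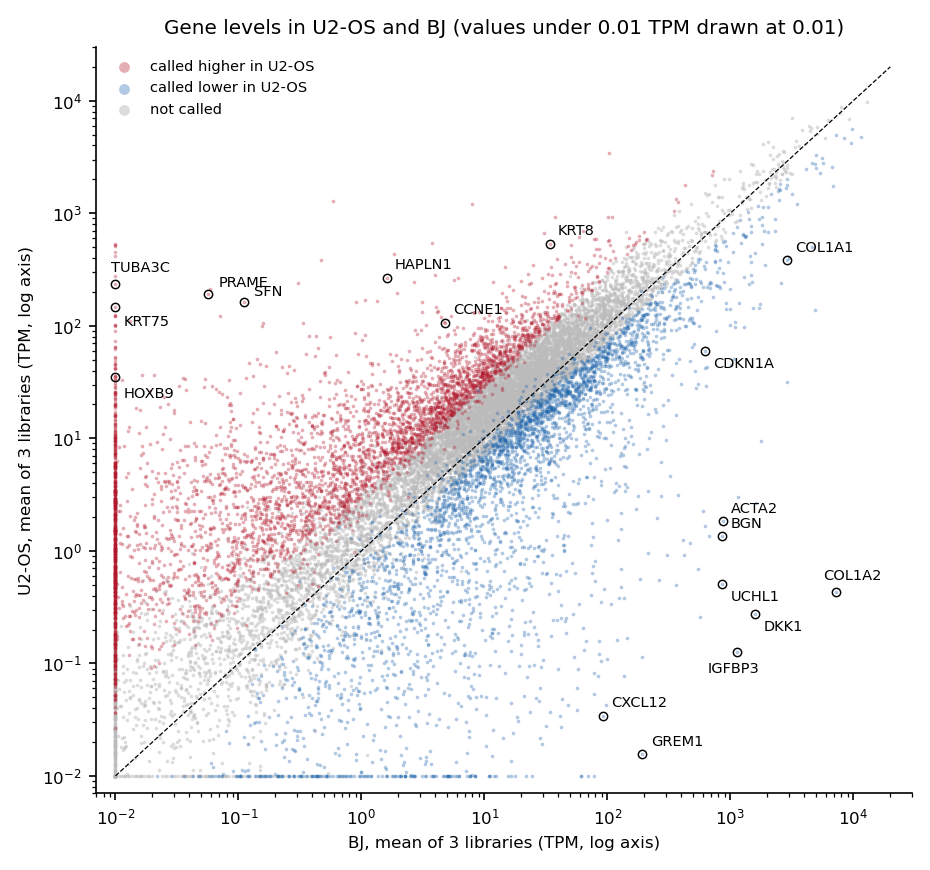
Mean level of each tested gene in U2-OS (vertical axis) against BJ (horizontal axis), both in TPM on log axes, over 3 libraries each. Red points were called higher and blue points lower in U2-OS, the dashed line marks equal levels, and COL1A2 lies at the lower right with 0.427 TPM in U2-OS and 7215 TPM in BJ.

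The scaling of the libraries bears on small differences. With trimmed-mean factors, the median log2 fold change was 0.094 over all tested genes and -0.23 over genes at 10 TPM or more in both lines. Scaling to library totals alone, tried after seeing the data, moved the median gene up by 0.55 on the log2 scale, and the median of the genes at 10 TPM or more was then 0.33 (0.36 as a ratio of mean TPM). Under that scaling 6323 genes were called higher and 2241 lower, so 73.8% of calls were higher in U2-OS, against 55.5% with the factors. List counts under library totals are to be read beside these 6323 and 2241 of 17220 genes. List counts with the factors are to be read beside 24.9% higher and 19.9% lower over all tested genes. Changes below are log2 fold changes of the fit with factors, U2-OS minus BJ, each ± its SE, and where the median of a list changes sign under library totals this is said beside it.

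Genes of the extracellular matrix were lower in U2-OS in the main. Of 11 fibrillar collagen genes, 8 were called lower and 1 higher (median log2 fold change -1.98, and -1.45 under library totals, with 5 lower and 1 higher). COL1A2, which encodes the second chain of type I collagen (ENSG00000164692, chromosome 7, 94394561 to 94431232 on GRCh38), stood at 0.42, 0.535 and 0.326 TPM in U2-OS, against 3772, 9447 and 8426 TPM in BJ (log2 fold change -15.07 ± 1.03, adjusted p = 9.6e-12). All 3 U2-OS libraries were near 0 while the gene was among the 10 most abundant in BJ. COL1A1, the partner chain of the same trimer, stood at 618, 359 and 176 TPM in U2-OS, against 1799.5, 4325 and 2506 TPM in BJ (log2 fold change -3.84 ± 0.65, adjusted p = 1.9e-05). The libraries did not overlap, yet every U2-OS library kept COL1A1 above 100 TPM with almost no COL1A2. COL3A1, the chain of type III collagen, stood at 41.9, 33.2 and 11.9 TPM in U2-OS, against 337, 811 and 771 TPM in BJ (log2 fold change -5.16 ± 0.47, adjusted p = 1.4e-09). Without BJ replicate 1 the list had 9 members lower and 1 higher. The one gene of the list called higher was COL2A1, the collagen of cartilage, at low levels of 0.714, 0.986 and 0.0634 TPM in U2-OS, against 0.023, 0.119 and 0 TPM in BJ (105 counts over the U2-OS libraries and 2 over the BJ libraries, adjusted p = 9.5e-05).

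Proteins that decorate, cross-link and bind collagen followed the same direction. None of the 11 tested small leucine-rich proteoglycans (of 17 listed) was called higher and 9 were lower, with a median of -8.02. DCN, decorin, which binds collagen fibrils and growth factors, stood at 0.595, 1.18 and 0.303 TPM in U2-OS, against 343, 559 and 731 TPM in BJ (log2 fold change -11.16 ± 0.54, adjusted p = 2.1e-14). BGN, biglycan, a close relative, stood at 1.59, 1.04 and 1.41 TPM in U2-OS, against 752, 1087 and 728 TPM in BJ (log2 fold change -9.82 ± 0.68, adjusted p = 3.6e-11). LUM, lumican, stood at 10.5, 9.84 and 7.86 TPM in U2-OS, against 902, 2029 and 2386 TPM in BJ (log2 fold change -8.02 ± 0.52, adjusted p = 3.1e-12). In each of them every U2-OS library was far below every BJ library. Elastic fibre genes were lower in 12 of 18 and higher in 2. ELN, elastin, stood at 0.294, 0.883 and 0.498 TPM in U2-OS, against 58.9, 372 and 125 TPM in BJ (log2 fold change -11.02 ± 0.86, adjusted p = 9.1e-11), and FBLN2, fibulin 2, at 0.291, 0.218 and 0 TPM in U2-OS, against 111, 189.7 and 132 TPM in BJ (log2 fold change -11.68 ± 0.66, adjusted p = 3.4e-13). MFAP2, a microfibril protein, was one of the exceptions, at 316, 233.3 and 92.9 TPM in U2-OS, against 55.3, 82.4 and 55.5 TPM in BJ (log2 fold change 1.15 ± 0.39, adjusted p = 0.013). Collagen processing enzymes were lower in 21 of 32 and higher in 5. LOX and LOXL2, lysyl oxidases that cross-link collagen, averaged 36.7 ± 3.73 TPM in U2-OS and 335 ± 101 TPM in BJ, and 89.6 ± 22.4 TPM in U2-OS and 764 ± 132 TPM in BJ (SD, n = 3 each). Adhesive and matricellular glycoproteins were lower in 19 of 28. FN1, fibronectin, stood at 287, 248 and 667 TPM in U2-OS, against 2136, 4009 and 2842 TPM in BJ (log2 fold change -2.90 ± 0.34, adjusted p = 1.1e-07), and THBS1, thrombospondin 1, at 176, 203.3 and 344 TPM in U2-OS, against 2288, 2626 and 2819 TPM in BJ (log2 fold change -3.90 ± 0.35, adjusted p = 1.1e-09). SPARC, a collagen-binding glycoprotein abundant in bone, remained high in both, at 2870.2, 2429.5 and 2265 TPM in U2-OS, against 2831, 6629 and 5367 TPM in BJ (log2 fold change -2.07 ± 0.40, adjusted p = 9.7e-05).

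**Figure D2:**
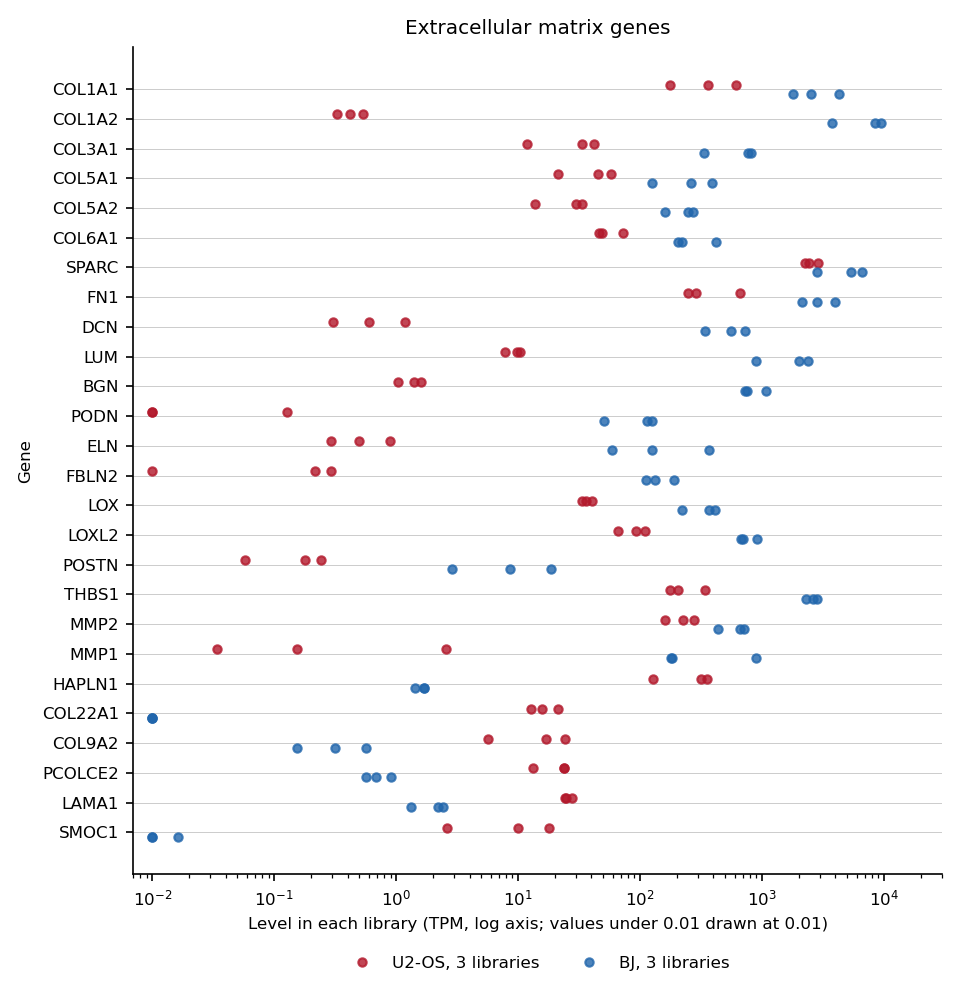
Level in each library (TPM, log axis) of 26 extracellular matrix genes, one row a gene, with U2-OS in red above BJ in blue, and values under 0.01 TPM drawn at 0.01. From COL1A1 to MMP1 U2-OS lies to the left of BJ, except SPARC, where U2-OS replicate 1 reaches BJ replicate 1, and from HAPLN1 to SMOC1 it lies to the right.

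Other matrix lists were mixed or mainly lower too, and some of their genes went the opposite way. Among other proteoglycans and hyaluronan genes, 11 of 24 were higher and 8 lower. HAPLN1, which links hyaluronan to proteoglycans in cartilage, stood at 319.6, 354 and 127 TPM in U2-OS, against 1.7, 1.69 and 1.43 TPM in BJ (log2 fold change 7.25 ± 0.59, adjusted p = 4.9e-09). Laminins were split, with 5 higher and 6 lower of 11. LAMA1, an early embryonic laminin chain, averaged 25.5 ± 1.82 TPM in U2-OS and 1.99 ± 0.585 TPM in BJ (log2 fold change 3.78 ± 0.36, adjusted p = 2.6e-09), while LAMA2, LAMA4 and LAMB2 had log2 fold changes of -4.74, -4.46 and -3.19. Proteases and inhibitors were lower in 21 of 34 and higher in 9. MMP1, interstitial collagenase, stood at 0.152, 0.0343 and 2.56 TPM in U2-OS, against 896, 182 and 178 TPM in BJ (log2 fold change -9.28 ± 1.14, adjusted p = 2.0e-07, and -8.11 without BJ replicate 1), with 1 BJ library well above the other 2. FAP, a membrane protease of activated fibroblasts, averaged 1.26 ± 0.423 TPM in U2-OS and 122 ± 34.2 TPM in BJ (log2 fold change -7.39 ± 0.44, adjusted p = 1.7e-11). Non-fibrillar collagens had 5 higher and 13 lower of 27, with a median of -0.45 that turned to 0.14 under library totals (8 higher, 9 lower). COL22A1, a collagen of tissue junctions, was at 0 counts in BJ and 15.8, 12.7 and 21.3 TPM in U2-OS (at least 344-fold higher, adjusted p = 4.1e-11, against a floor of 3 counts over the 3 BJ libraries, which is used wherever a line was at 0).

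Surface markers of fibroblasts were lower in 14 of 17 tested and higher in 2 (median -3.72). ANPEP, aminopeptidase N or CD13, stood at 0.541, 0.62 and 0.336 TPM in U2-OS, against 601, 254 and 224 TPM in BJ (log2 fold change -11.70 ± 0.55, adjusted p = 6.8e-14). NT5E, the ecto-nucleotidase CD73 used to define stromal cells, stood at 0.032, 0.183 and 0.146 TPM in U2-OS, against 153, 54 and 50.5 TPM in BJ (log2 fold change -10.26 ± 0.61, adjusted p = 7.7e-13). Without BJ replicate 1 their log2 fold changes were -11.06 and -9.63. Both genes were present in every BJ library and under 1 TPM in every U2-OS library. PDPN, podoplanin, was one of the 2 higher, at 51.7, 59.2 and 27.9 TPM in U2-OS, against 1.04, 1.31 and 1.19 TPM in BJ (log2 fold change 4.67 ± 0.47, adjusted p = 1.9e-08). UCHL1, a neuronal ubiquitin hydrolase also known from cultured fibroblasts, stood at 0.42, 0.663 and 0.427 TPM in U2-OS, against 714, 995 and 869.8 TPM in BJ (log2 fold change -11.38 ± 0.55, adjusted p = 2.1e-14). Among mesenchymal transcription factors 13 of 53 were higher and 25 lower. TWIST1, a factor of mesenchymal differentiation, stood at 0.148, 0 and 0 TPM in U2-OS, against 20.6, 32.1 and 25.9 TPM in BJ (1 count over the U2-OS libraries and 1378 over the BJ libraries, adjusted p = 1.4e-12). OSR2, a developmental zinc finger factor, stood at 0.0853, 0.192 and 0.0357 TPM in U2-OS, against 45.7, 105 and 118 TPM in BJ (log2 fold change -10.51 ± 0.49, adjusted p = 1.7e-14).

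HOX genes, which record the position of a cell's origin along the body axis, differed by cluster. Of 37 tested, 15 were higher and 9 lower in U2-OS (median 0.97), and 22 and 7 under library totals. In the HOXB cluster, HOXB9 was at 0 counts in BJ and 34.7, 31.7 and 38.9 TPM in U2-OS (at least 895-fold higher, adjusted p = 2.6e-13). HOXB7 stood at 34, 38.6 and 36.1 TPM in U2-OS, against 0, 0.0493 and 0 TPM in BJ (2205 counts over the U2-OS libraries and 1 over the BJ libraries, adjusted p = 6.0e-16), and HOXB3 at 9.01, 11.9 and 15.8 TPM in U2-OS, against 0.0487, 0.168 and 0.0704 TPM in BJ (log2 fold change 6.26 ± 0.42, adjusted p = 2.7e-11). The 7 genes from HOXB3 to HOXB9 were called higher while HOXB2 was lower (-2.46), and the higher genes' BJ values were at or near 0 while U2-OS was above 30 TPM in each library for HOXB7 and HOXB9. At the distal end of the HOXA cluster the direction was the reverse. HOXA11, used in limb patterning, stood at 9.29, 8.94 and 9.62 TPM in U2-OS, against 41, 41.2 and 40.5 TPM in BJ (log2 fold change -2.67 ± 0.26, adjusted p = 3.7e-09), and HOXA9, HOXA10 and HOXA13 had log2 fold changes of -1.40, -1.88 and -2.35. HOXD10 and HOXD11 were lower too (-1.96 and -1.17), as was HOXD13, which changed more, whereas HOXC9 and HOXC13 were higher (1.75 and 1.35). HOXC12 was lower, with 3 counts over the U2-OS libraries and 110 over the BJ libraries, adjusted p = 9.6e-07.

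**Figure D3:**
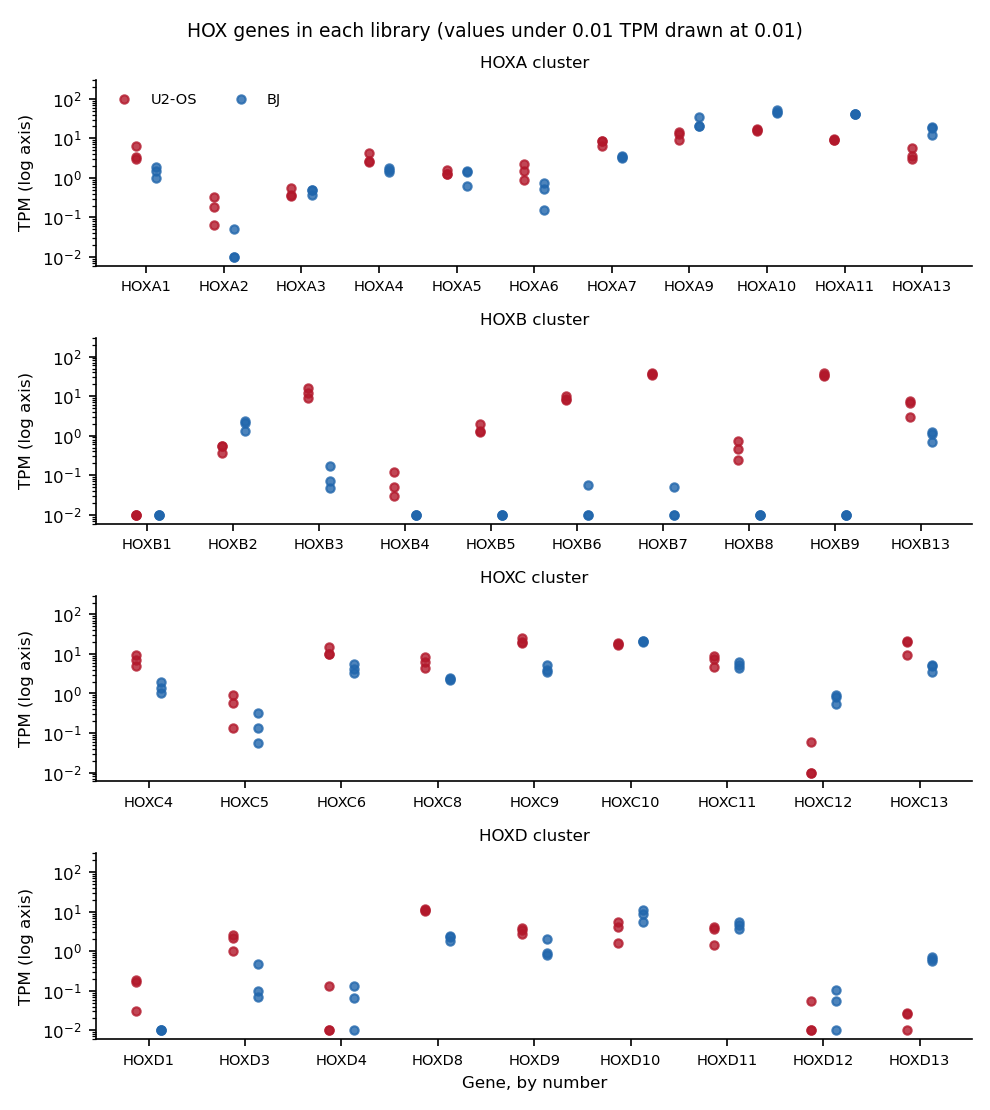
Level of the HOX genes of the 4 clusters in each library (TPM, log axis, values under 0.01 drawn at 0.01), U2-OS in red left of BJ in blue. From HOXB3 to HOXB9 the BJ points lie at or near the bottom of the axis and the U2-OS points above them, and from HOXA9 to HOXA13 the called genes are higher in BJ.

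The actin-based contractile genes of myofibroblasts were lower in 25 of 32, with 1 higher and a median of -2.67. Their summed level was 3660.0, 3523 and 2752 TPM in U2-OS, against 12430.0, 22740.0 and 20150.0 TPM in BJ. ACTA2, smooth muscle alpha-actin, stood at 1.59, 2.09 and 1.87 TPM in U2-OS, against 245, 1369.8 and 998 TPM in BJ (log2 fold change -9.65 ± 0.65, adjusted p = 6.8e-12). ACTG2, the enteric smooth muscle actin, stood at 0.776, 0.551 and 1.02 TPM in U2-OS, against 40.1, 53.6 and 60.7 TPM in BJ (log2 fold change -6.78 ± 0.48, adjusted p = 1.5e-11), and MYLK, myosin light chain kinase, at 17.5, 18.4 and 12.5 TPM in U2-OS, against 314, 349.5 and 414 TPM in BJ (log2 fold change -4.96 ± 0.23, adjusted p = 1.2e-14). Every BJ library was above every U2-OS library for these genes, although the BJ libraries themselves spread widely for ACTA2. PDLIM3, a Z-disc protein, was the exception, at 15.3, 12.7 and 10.3 TPM in U2-OS, against 0.0568, 0.45 and 0.692 TPM in BJ (log2 fold change 4.93 ± 0.44, adjusted p = 1.0e-09). Many genes of this kind are known to be driven by serum response factor through CArG boxes. Of 25 members of the list with a RefSeq promoter, 5 (20%) held a CArG box in the 250 bases before the start site, against 1.16% of 35116 promoters. The ACTG2 promoter, shown because it holds 2 of them, is given with the CArG boxes in capitals (GRCh38.p14, chr2:73892758-73893007, plus strand).
ACTG2: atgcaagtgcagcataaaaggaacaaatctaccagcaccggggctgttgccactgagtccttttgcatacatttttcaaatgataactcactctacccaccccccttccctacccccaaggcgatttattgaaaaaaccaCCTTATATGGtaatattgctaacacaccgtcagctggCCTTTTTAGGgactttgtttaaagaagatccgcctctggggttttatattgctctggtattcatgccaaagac
A match describes these letters and not binding of a factor.

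Lineage genes of bone were mixed. Of 23 osteoblast and bone matrix genes, 15 passed the filter on low counts, with 4 higher and 5 lower (5 and 4 under library totals). Over all tested genes 24.9% were higher and 19.9% lower. RUNX2, the regulator that commits cells to the osteoblast lineage, stood at 14.7, 12 and 9.79 TPM in U2-OS, against 2.99, 2.63 and 2.2 TPM in BJ (log2 fold change 1.46 ± 0.29, adjusted p = 1.3e-04). ALPL, the phosphatase of mineralising cells, stood at 1.79, 0.954 and 7.67 TPM in U2-OS, against 0.598, 0.252 and 0.56 TPM in BJ (log2 fold change 2.70 ± 0.70, adjusted p = 0.002) with 1 U2-OS library above the other 2. PHOSPHO1, a phosphatase of matrix vesicles, averaged 2.3 ± 1.37 TPM in U2-OS and 0.166 ± 0.186 TPM in BJ (log2 fold change 4.02 ± 0.86, adjusted p = 3.5e-04), and PHEX, a regulator of phosphate, 0.283 ± 0.0871 TPM in U2-OS and 0.092 ± 0.142 TPM in BJ (92 counts over the U2-OS libraries and 3 over the BJ libraries, adjusted p = 2.4e-05). Lower in U2-OS were TNFRSF11B, osteoprotegerin, which blocks osteoclast formation (35.2, 27.2 and 56.8 TPM in U2-OS, against 541, 429.7 and 588 TPM in BJ, log2 fold change -4.29 ± 0.46, adjusted p = 2.0e-08), PTH1R, the parathyroid hormone receptor (-3.21), ANKH, a pyrophosphate transporter (-1.16, and -0.58 under library totals), and COL1A1 and SPARC, given above. Among those not called were SPP1 (3.34 TPM in U2-OS and 2.23 TPM in BJ), ATF4 (732 TPM in U2-OS and 489 TPM in BJ), ENPP1 (7.95 TPM in U2-OS and 5.93 TPM in BJ), FGF23 (1.13 TPM in U2-OS and 0.769 TPM in BJ) and BGLAP, osteocalcin (0.202 TPM in U2-OS and 0.117 TPM in BJ). Not tested because of low counts were IBSP, SP7, OMD, DMP1, MEPE, SOST, TNFSF11 and IFITM5, each with a mean under 0.05 TPM in both lines.

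Genes of other lineages were found in both lines. By summed mean TPM, the chondrocyte, skeletal muscle, keratinocyte and adipocyte lists were higher in U2-OS. Lists with the higher sum in BJ were neuronal (270 TPM in U2-OS and 1080 TPM in BJ), endothelial (38.3 and 90.9) and haematopoietic (20.5 and 79.9). Epithelial and melanocyte sums overlapped between libraries. By calls, 8 of 22 neuronal genes were higher in U2-OS and 6 lower, 8 of 14 endothelial higher and 1 lower, and 2 of 10 haematopoietic higher and 3 lower. The haematopoietic median of -0.40 turned to 0.14 under library totals (3 higher, 2 lower). For the endothelial list, limma on log2(TPM + 1) gave 2 higher and 1 lower. A fit of the 6 libraries alone tested 8 endothelial genes, with 4 higher and 1 lower. Chondrocyte genes were higher in 9 of 16 and lower in 3. Beside HAPLN1, COL9A2, a collagen of cartilage, averaged 15.6 ± 9.26 TPM in U2-OS and 0.345 ± 0.207 TPM in BJ (log2 fold change 5.20 ± 0.49, adjusted p = 2.4e-09). COMP, cartilage oligomeric matrix protein, was lower (0.106 TPM in U2-OS and 1.78 TPM in BJ). Skeletal muscle genes were higher in 6 and lower in 3 of 14, beside 24.9% and 19.9% of all tested genes. Of the troponins of striated muscle, TNNC1 stood at 255, 199 and 36 TPM in U2-OS, against 0.68, 1.04 and 0.977 TPM in BJ (log2 fold change 6.89 ± 0.66, adjusted p = 3.7e-09) and TNNT2 at 53, 71.3 and 8.27 TPM in U2-OS, against 0, 0.195 and 0.308 TPM in BJ (log2 fold change 6.78 ± 0.80, adjusted p = 9.8e-08). Replicate 3 was the lowest U2-OS library for both. The lower genes of the list were ACTC1, a cardiac actin, TTN, titin, and MEF2C, a muscle transcription factor, with log2 fold changes of -6.08, -4.78 and -2.15. Keratins changed in both directions. KRT75, a keratin of hair follicles, was at 0 counts in BJ and 185, 116 and 137 TPM in U2-OS (at least 3333-fold higher, adjusted p = 7.7e-09), and KRT8, a simple epithelial keratin, stood at 556, 544 and 515 TPM in U2-OS, against 35.5, 32.3 and 34.2 TPM in BJ (log2 fold change 3.61 ± 0.25, adjusted p = 1.5e-11). KRT19 and KRT7 were high in BJ instead, at 0.96, 0.469 and 0.232 TPM in U2-OS, against 222, 282.1 and 280.6 TPM in BJ (log2 fold change -9.57 ± 0.58, adjusted p = 9.9e-13) and at 9.12, 6.32 and 6.41 TPM in U2-OS, against 142, 253 and 144 TPM in BJ (log2 fold change -6.41 ± 0.55, adjusted p = 5.4e-10). SFN, the epithelial 14-3-3 sigma protein, stood at 163, 146 and 174 TPM in U2-OS, against 0.227, 0.103 and 0 TPM in BJ (log2 fold change 10.06 ± 0.56, adjusted p = 2.5e-13, and 10.88 without BJ replicate 1). SOX, GATA and forkhead factors were higher in 9 and lower in 4 of 27, beside the same 24.9% and 19.9%. SOX2 and GATA4 were at 0 counts in BJ, and stood at 12.3, 11 and 4.99 TPM in U2-OS for SOX2 (at least 231-fold higher, adjusted p = 1.4e-09) and 6.32, 7.02 and 3.16 TPM in U2-OS for GATA4 (at least 118-fold higher, adjusted p = 7.2e-11). Lower were GATA2 (-6.06), SOX11 (-3.31), FOXE1 (at least 173-fold lower, adjusted p = 1.0e-09) and FOXQ1 (1 count over the U2-OS libraries and 36 over the BJ libraries, adjusted p = 2.0e-06).

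Cancer-testis genes, normally restricted to the germ line and placenta, were called higher in 24 of 28 tested members (of 46 listed) and lower in none. In BJ 17 of the tested members were at 0 counts, and the median log2 fold change was 10.6, or 8.27 with such genes at their bound. Those 17 passed the filter on low counts only through other lines, and could not have been called lower. The counts by direction and the median are thus partly set by that filter. MAGEA1, a member of the MAGE family on the X chromosome (ENSG00000198681, chromosome X, 153179285 to 153183880), was at 0 counts in BJ and 103, 122 and 140.1 TPM in U2-OS (at least 1942-fold higher, adjusted p = 2.1e-14). MAGEB2 was likewise at 0 in BJ and 100.1, 119 and 145 TPM in U2-OS (at least 1810.2-fold higher, adjusted p = 2.9e-11). MAGEA4 stood at 195, 194 and 253 TPM in U2-OS, against 0, 0.09 and 0.0864 TPM in BJ (14972 counts over the U2-OS libraries and 2 over the BJ libraries, adjusted p = 1.8e-14), and PRAME, a ubiquitin ligase subunit on chromosome 22, at 203.2, 216.6 and 160.5 TPM in U2-OS, against 0, 0.083 and 0.0878 TPM in BJ (20006 counts over the U2-OS libraries and 1 over the BJ libraries, adjusted p = 2.1e-14). XAGE1A averaged 518 ± 65.7 TPM in U2-OS and 0 ± 0 TPM in BJ, and PAGE2 508 ± 46.1 TPM in U2-OS and 0 ± 0 TPM in BJ (SD, n = 3 each), but XAGE1A with XAGE1B and PAGE2 with PAGE2B are near-identical copies whose reads could be split arbitrarily. Germ cell and meiosis genes were higher in 13 of 26 and lower in 3. Of these, 5 were at 0 counts in 1 of the lines and could be called in only 1 direction. A fit of the 6 libraries alone tested 17 of the list, with 12 higher and 1 lower. TUBA3C, a testis alpha-tubulin with close relatives, was at 0 counts in BJ and 249.2, 239.8 and 213 TPM in U2-OS (at least 3312-fold higher, adjusted p = 1.7e-11).

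Cancer-testis promoters are known to be silenced by methylation of CpG sites in somatic cells, which was not measured here. The promoters of MAGEB2 and PRAME are shown because both genes were near 0 in BJ and above 90 TPM in U2-OS, and their CpG sites are in capitals (MAGEB2: GRCh38.p14, chrX:30215313-30215562, plus strand, and PRAME: GRCh38.p14, chr22:22559266-22559515, minus strand).
MAGEB2: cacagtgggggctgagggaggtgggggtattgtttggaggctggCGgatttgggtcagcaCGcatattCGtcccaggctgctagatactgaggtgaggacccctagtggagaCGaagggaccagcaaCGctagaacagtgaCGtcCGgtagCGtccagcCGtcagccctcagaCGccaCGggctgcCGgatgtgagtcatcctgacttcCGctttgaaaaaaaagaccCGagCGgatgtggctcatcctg
PRAME: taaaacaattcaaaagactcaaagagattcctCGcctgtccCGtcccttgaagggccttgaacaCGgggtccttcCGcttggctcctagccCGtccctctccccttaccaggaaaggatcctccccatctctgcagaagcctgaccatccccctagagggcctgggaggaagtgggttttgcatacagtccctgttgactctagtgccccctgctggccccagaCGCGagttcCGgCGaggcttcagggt
These 250 bases held 15 CpG sites before MAGEB2 and 9 before PRAME, and a median of 8.5 over 40 matched members of the list, against a median of 11 over 35116 RefSeq promoters. Chromatin regulators of the DNA methylation and repressive chromatin list were higher in 14 of 29 and lower in 3. DNMT3B, a de novo DNA methyltransferase, stood at 11.9, 11.6 and 6.69 TPM in U2-OS, against 0.805, 0.593 and 0.542 TPM in BJ (log2 fold change 3.43 ± 0.34, adjusted p = 5.6e-09), CBX2, a Polycomb subunit, at 39.1, 36.2 and 22 TPM in U2-OS, against 0.514, 0.498 and 0.362 TPM in BJ (log2 fold change 5.92 ± 0.32, adjusted p = 1.6e-13), and SMCHD1, a silencer of the inactive X chromosome, at 66.9, 81.1 and 85 TPM in U2-OS, against 12.8, 9.29 and 9.21 TPM in BJ (log2 fold change 2.37 ± 0.21, adjusted p = 1.1e-09).

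DNA replication and S phase genes were higher in 39 of 42 and lower in none (median 2.41), and mitosis genes in 36 of 40 and lower in none (median 2.13). Their summed levels were 5349, 5836 and 5959 TPM in U2-OS, against 1849, 532 and 453 TPM in BJ for S phase, and 6195, 7304 and 6244 TPM in U2-OS, against 3100.0, 385 and 223 TPM in BJ for mitosis. BJ replicate 1 held several times the level of the other BJ libraries and still lay below U2-OS. Without it, the counts were 39 and 40 and the medians 3.51 and 3.97. The mitosis count was 29 without BJ replicate 2, 31 without BJ replicate 3, 27 when edgeR's glmTreat tested against the 2-fold threshold and 15 when the fit held the 6 libraries alone, with none lower in any of them. The S phase count was 34 to 36 under the same settings. PRIM1, the primase subunit, stood at 115, 121 and 124 TPM in U2-OS, against 9.53, 2.11 and 1.77 TPM in BJ (log2 fold change 4.26 ± 0.39, adjusted p = 1.4e-09, and 5.38 without BJ replicate 1). MCM6, a subunit of the replicative helicase, stood at 65.6, 72.2 and 69.3 TPM in U2-OS, against 28.8, 11 and 10.5 TPM in BJ (log2 fold change 1.58 ± 0.24, adjusted p = 3.4e-06). CDK1, the mitotic kinase, stood at 310.3, 382 and 343 TPM in U2-OS, against 60.4, 9.18 and 5.57 TPM in BJ (log2 fold change 3.26 ± 0.52, adjusted p = 9.1e-06, and 4.96 without BJ replicate 1). MYBL2, a regulator of mitotic genes, stood at 275, 241.7 and 212 TPM in U2-OS, against 27.3, 5 and 2.64 TPM in BJ (log2 fold change 3.89 ± 0.54, adjusted p = 1.1e-06, and 5.43 without that library). In cultures of a whole line, fewer dividing cells and less RNA of these genes per cell cannot be told apart.

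**Figure D4:**
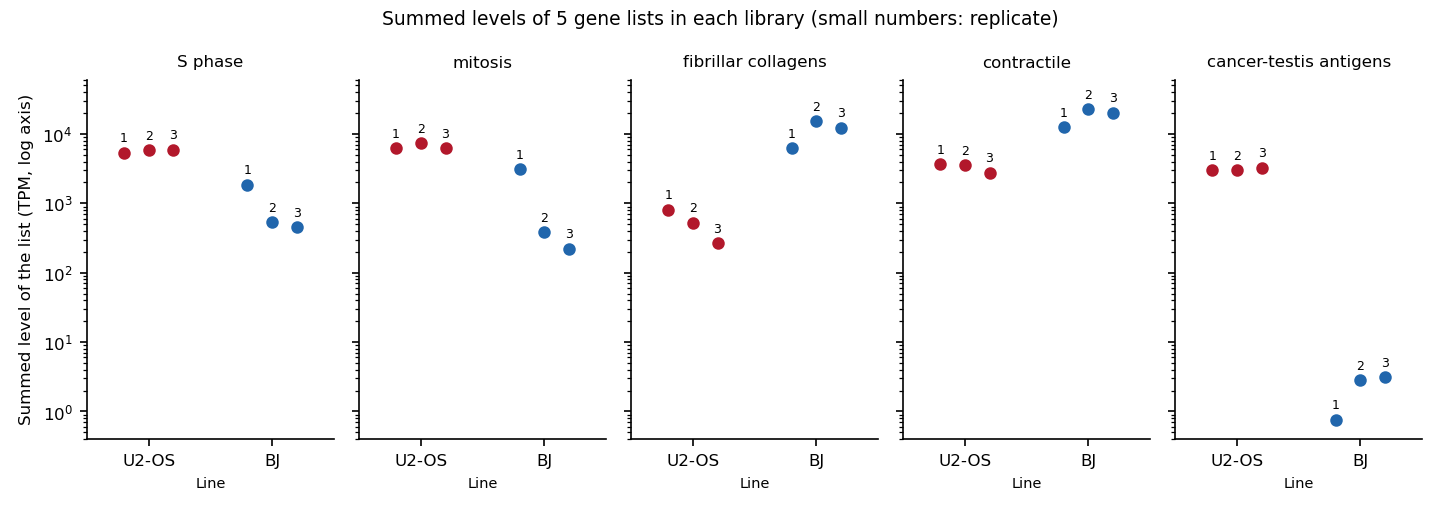
Summed level of 5 gene lists in each library (TPM, log axis), U2-OS in red left of BJ in blue, with replicate numbers above the points. BJ replicate 1 stands above the other BJ libraries for S phase and mitosis and below them for fibrillar collagens, contractile genes and cancer-testis antigens.

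Promoters of replication genes are known to carry E2F sites and those of mitotic genes CHR elements with CCAAT boxes. An E2F site (TTTCCCGC or TTTGGCGC, either strand) lay in the 250 bases before the start of 11 of 36 matched S phase genes (30.6%), against 1.93% of all promoters. A CHR element (TTTGAA) lay before 20 of 34 matched mitosis genes (58.8%), against 13.3%, and a CCAAT box (CCAAT) before 25 of 34 (73.5%), against 32%. The MCM6 promoter (GRCh38.p14, chr2:135876444-135876693, minus strand, E2F sites in capitals) and the CCNB2 promoter (GRCh38.p14, chr15:59104896-59105145, plus strand, CCAAT boxes and the CHR element in capitals) are shown as members with several matches, chosen after the matches were seen.
MCM6: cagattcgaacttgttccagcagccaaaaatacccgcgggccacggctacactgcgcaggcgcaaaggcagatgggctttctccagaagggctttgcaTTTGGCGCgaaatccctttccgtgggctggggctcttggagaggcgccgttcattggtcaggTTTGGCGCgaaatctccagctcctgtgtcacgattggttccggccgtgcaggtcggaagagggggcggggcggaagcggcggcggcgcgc
CCNB2: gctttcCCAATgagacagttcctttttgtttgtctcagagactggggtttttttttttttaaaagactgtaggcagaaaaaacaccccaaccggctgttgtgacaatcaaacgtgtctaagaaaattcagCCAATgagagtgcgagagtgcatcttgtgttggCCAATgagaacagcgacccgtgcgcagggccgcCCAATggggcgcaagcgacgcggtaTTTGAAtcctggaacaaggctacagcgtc
CCNB2, cyclin B2, stood at 196, 240.3 and 156 TPM in U2-OS, against 90, 12 and 7.39 TPM in BJ (log2 fold change 1.96 ± 0.51, adjusted p = 0.0018), with BJ replicate 1 between the other BJ libraries and U2-OS.

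Regulators of cell cycle entry differed in kind as well as level. CDKN2A, which encodes the inhibitors p16 and p14ARF (ENSG00000147889, chromosome 9, 21967753 to 21995301), stood at 0, 0.134 and 0 TPM in U2-OS, against 6.08, 5.85 and 6.39 TPM in BJ (1 count over the U2-OS libraries and 195 over the BJ libraries, adjusted p = 1.2e-08). Its neighbour CDKN2B, the inhibitor p15, stood at 3.1, 2.91 and 1.48 TPM in U2-OS, against 1.88, 4.83 and 3.8 TPM in BJ (log2 fold change -1.26 ± 0.42, adjusted p = 0.016, and -0.66 under library totals), with libraries that overlapped, and MTAP, the next gene on 9p21, at 43, 48.6 and 56.7 TPM in U2-OS, against 18.5, 13.1 and 14.7 TPM in BJ (log2 fold change 0.68, not called, and 1.23, called, under library totals). Other 9p21 genes lower in U2-OS were HACD4 (0.0547 TPM in U2-OS and 4.71 TPM in BJ) and MLLT3 (8.01 TPM in U2-OS and 20.4 TPM in BJ), and higher were DMRTA1 and ELAVL2 (3.45 TPM in U2-OS and 0 TPM in BJ for DMRTA1, and 8.28 TPM in U2-OS and 0.395 TPM in BJ for ELAVL2). FOCAD (12.1 TPM in U2-OS and 17 TPM in BJ) and KLHL9 (16.4 TPM in U2-OS and 18 TPM in BJ) were not called, and IFNE was too low to test. CDKN1A, the inhibitor p21, stood at 68.4, 59 and 51.1 TPM in U2-OS, against 525, 675 and 667 TPM in BJ (log2 fold change -3.98 ± 0.22, adjusted p = 2.9e-13). CCNE1, cyclin E1, stood at 95.2, 101 and 123 TPM in U2-OS, against 6.05, 3.77 and 4.46 TPM in BJ (log2 fold change 3.93 ± 0.25, adjusted p = 2.1e-12), and CCND2, cyclin D2, at 40.9, 35.4 and 36.6 TPM in U2-OS, against 0.635, 1.37 and 1.63 TPM in BJ (log2 fold change 4.32 ± 0.41, adjusted p = 7.8e-09). CCND1, cyclin D1, was lower, at 74.1, 82.8 and 74 TPM in U2-OS, against 229.8, 119 and 119 TPM in BJ (log2 fold change -1.55 ± 0.18, adjusted p = 7.6e-08). For CDKN1A, CCNE1 and CCND2 the libraries of the lines did not overlap.

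Also higher were CCNE2, E2F1, E2F2, RBL1, CDK4 and CDK6, with log2 fold changes of 3.84, 2.23, 4.00, 2.70, 1.13 and 2.18. Without BJ replicate 1 they were 4.36, 3.79, 5.90, 3.50, 1.31 and 1.96, and E2F1, E2F2 and RBL1 moved most. Among those not called were RB1 (31.5 TPM in U2-OS and 24.2 TPM in BJ), RBL2, E2F3, CCND3, CDKN1B, CDKN1C, CDKN2C and CDKN2D, whose log2 fold changes lay between -0.90 and 0.81. RBL2, E2F3 and CDKN2C were called higher under library totals (1.37, 1.02 and 1.11).

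Telomere maintenance genes were higher in 9 of 24 and lower in 2. TERT, the catalytic subunit of telomerase, was at 0, 0.0272 and 0.0245 TPM in U2-OS, against 0, 0 and 0 TPM in BJ, and was not called. BLM and FANCM, helicases that act at recombining telomeres, averaged 24 ± 2.34 TPM in U2-OS and 1.98 ± 2.11 TPM in BJ, and 13.7 ± 2.39 TPM in U2-OS and 1.35 ± 0.0789 TPM in BJ (SD, n = 3 each). BLM was higher with and without BJ replicate 1 (log2 fold change 3.95 and 5.23). RAD52, SLX4, NR2C2, TEP1 and DKC1 were higher too, with log2 fold changes from 1.13 to 1.51, and TERF2IP (-1.53, and -0.96, not called, under library totals) and NR2F2 (-2.33) were lower. DAXX, a histone chaperone partner of ATRX, averaged 19.9 ± 7.66 TPM in U2-OS and 34 ± 3.72 TPM in BJ and was not called (adjusted p above 0.05), nor were the other shelterin genes TERF1, TERF2, POT1, TINF2 and ACD, between -0.23 and 0.42. GAR1, NHP2, NOP10, WRAP53, SMARCAL1 and RTEL1 were not called either. WRAP53, which carries telomerase RNA to Cajal bodies, was called higher without BJ replicate 1 (1.75) and under library totals (1.35), and GAR1 under library totals (1.07).

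ATRX, a chromatin remodeller that U2-OS is known to lack in functional form, was called higher by its summed counts, at 112, 109 and 86 TPM in U2-OS, against 16.1, 10.1 and 11.6 TPM in BJ (log2 fold change 1.71 ± 0.29, adjusted p = 2.1e-05). By mean TPM, ATRX-218 was its largest transcript in U2-OS and ATRX-202 in BJ. The full-length coding transcript ATRX-201, of 35 exons, was at 1.01, 1.91 and 2.21 TPM in U2-OS, against 1.16, 2.39 and 2.74 TPM in BJ, which overlap. ATRX-202, another long coding transcript, was at 30.7, 37.4 and 31.1 TPM in U2-OS, against 5.48, 4.28 and 5.11 TPM in BJ. ATRX-218, a retained-intron transcript of 580 bases near the end of the gene, was at 52.6, 43.3 and 35 TPM in U2-OS, against 5.72, 0.936 and 0.215 TPM in BJ. ATRX-210, a short transcript annotated for nonsense-mediated decay, averaged 15.4 TPM in U2-OS and was at 0 in BJ. Values per transcript do not show which exons were covered, so the higher sum says nothing of an intact messenger RNA.

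In the IGF system, which drives growth through the type 1 receptor, 13 of 19 genes were lower and 1 higher (median -3.35). IGFBP3 and IGFBP4, secreted proteins that bind IGFs, stood at 0.203, 0.176 and 0 TPM in U2-OS, against 458, 1583 and 1344 TPM in BJ (log2 fold change -13.86 ± 0.67, adjusted p = 2.6e-14), and at 2.88, 2.97 and 2.18 TPM in U2-OS, against 1183, 1577 and 2071 TPM in BJ (log2 fold change -9.77 ± 0.58, adjusted p = 7.6e-13). IRS2, a receptor adaptor, averaged 0.00683 ± 0.00673 TPM in U2-OS and 4.94 ± 2.46 TPM in BJ, and IGF2 itself 14 ± 4.26 TPM in U2-OS and 105 ± 33.5 TPM in BJ (SD, n = 3 each). WNT genes were higher in 24 and lower in 14 of 46. DKK1, a secreted WNT inhibitor (ENSG00000107984, chromosome 10, 52314296 to 52318042), stood at 0.102, 0.191 and 0.529 TPM in U2-OS, against 1856, 1463 and 1431 TPM in BJ (log2 fold change -13.51 ± 0.48, adjusted p = 1.9e-16). FZD3, a WNT receptor, was higher, at 25.3, 26.8 and 19.1 TPM in U2-OS, against 0.0659, 0.406 and 0.169 TPM in BJ (log2 fold change 5.91 ± 0.34, adjusted p = 3.7e-13). BMP genes were split, with 9 higher and 9 lower of 28 and a median of -0.23 that turned to 0.32 under library totals (10 higher, 8 lower). The shares over all tested genes were 24.9% higher and 19.9% lower. Of the bone morphogenetic protein ligands, BMP5 stood at 36.3, 39 and 32.6 TPM in U2-OS, against 0, 0.0151 and 0 TPM in BJ (7246 counts over the U2-OS libraries and 1 over the BJ libraries, adjusted p = 7.5e-12), BMP6 averaged 9.49 ± 3.7 TPM in U2-OS and 0.00772 ± 0.0134 TPM in BJ (1310 counts over the U2-OS libraries and 1 over the BJ libraries, adjusted p = 5.1e-09), and BMP7 was at 0 counts in BJ and 22.9, 15.8 and 9.09 TPM in U2-OS (at least 331-fold higher, adjusted p = 1.7e-12). GREM1, gremlin, a secreted BMP antagonist, ran the other way, at 0.0219, 0.0166 and 0.00832 TPM in U2-OS, against 183, 181 and 213 TPM in BJ (log2 fold change -11.97 ± 0.60, adjusted p = 3.8e-14).

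Hedgehog genes were higher in 6 of 13 and lower in 1. PTCH1, HHIP and GLI1, which are targets as well as parts of the pathway, had log2 fold changes of 2.51, 5.91 and 2.34. GAS1, a co-receptor, was lower (-4.07). TGFB2, a ligand of the TGF-beta receptors, stood at 119, 132 and 118 TPM in U2-OS, against 2.75, 6.3 and 6.94 TPM in BJ (log2 fold change 3.66 ± 0.39, adjusted p = 3.6e-08), and PMEPA1, a feedback inhibitor of the pathway, at 145, 122 and 129.9 TPM in U2-OS, against 2.42, 6 and 3.95 TPM in BJ (log2 fold change 4.43 ± 0.47, adjusted p = 1.9e-08). Over the whole TGF-beta list 3 were higher and 6 lower of 24, with a median of -0.44 that turned to 0.11 under library totals. Receptor tyrosine kinases were higher in 16 and lower in 11 of 43, beside 24.9% and 19.9% of all tested genes. FGFR4 averaged 16.5 ± 6.73 TPM in U2-OS and 0.265 ± 0.225 TPM in BJ, against a pattern of lower PDGF receptors, with 7.7 ± 3.1 TPM in U2-OS and 31.5 ± 4.63 TPM in BJ for PDGFRA and 24.7 ± 9.95 TPM in U2-OS and 144 ± 39.9 TPM in BJ for PDGFRB (SD, n = 3 each). Genes of MAPK output were lower in 9 of 19 and higher in 3. DUSP6 and SPRY4, inhibitors induced by the pathway, stood at 1.04, 0.9 and 1.03 TPM in U2-OS, against 46.5, 43 and 43.3 TPM in BJ (log2 fold change -6.24 ± 0.40, adjusted p = 2.6e-12), and at 0.146, 0.127 and 0.115 TPM in U2-OS, against 14.6, 12.8 and 9.45 TPM in BJ (log2 fold change -6.96 ± 0.36, adjusted p = 6.8e-14). ETV4, a transcription factor placed in the same list, was higher, at 58.5, 44 and 77.4 TPM in U2-OS, against 5.32, 2.68 and 2.87 TPM in BJ (log2 fold change 3.55 ± 0.36, adjusted p = 1.0e-08).

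Interferon response genes were lower in 21 of 36 and higher in 5 (median -1.71). IFITM1, a membrane protein that blocks viral entry, stood at 1.21, 1.54 and 0.961 TPM in U2-OS, against 302, 502 and 425 TPM in BJ (log2 fold change -8.87 ± 0.75, adjusted p = 4.4e-10), and IFI35 at 0, 0.956 and 0.957 TPM in U2-OS, against 32.3, 34 and 31.2 TPM in BJ (log2 fold change -7.84 ± 0.43, adjusted p = 2.1e-13). IFI44 was an exception, at 25.8, 24.5 and 21 TPM in U2-OS, against 2.85, 3.62 and 1.9 TPM in BJ (log2 fold change 2.76 ± 0.38, adjusted p = 1.8e-06). Complement and coagulation genes were lower in 13 of 23 and higher in 3, among them C1S, a complement protease (2.37 TPM in U2-OS and 171 TPM in BJ). Cytokines and chemokines were lower in 12 of 26 and higher in 6. CXCL12, the stromal ligand of CXCR4, stood at 0.0161, 0.0547 and 0.0325 TPM in U2-OS, against 144, 70 and 60.2 TPM in BJ (log2 fold change -11.28 ± 0.58, adjusted p = 1.3e-12), and ICAM1, an adhesion molecule induced by inflammation, at 0.346, 0.28 and 0.101 TPM in U2-OS, against 18.8, 44.8 and 53.7 TPM in BJ (log2 fold change -8.40 ± 0.61, adjusted p = 2.7e-11).

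**Figure D5:**
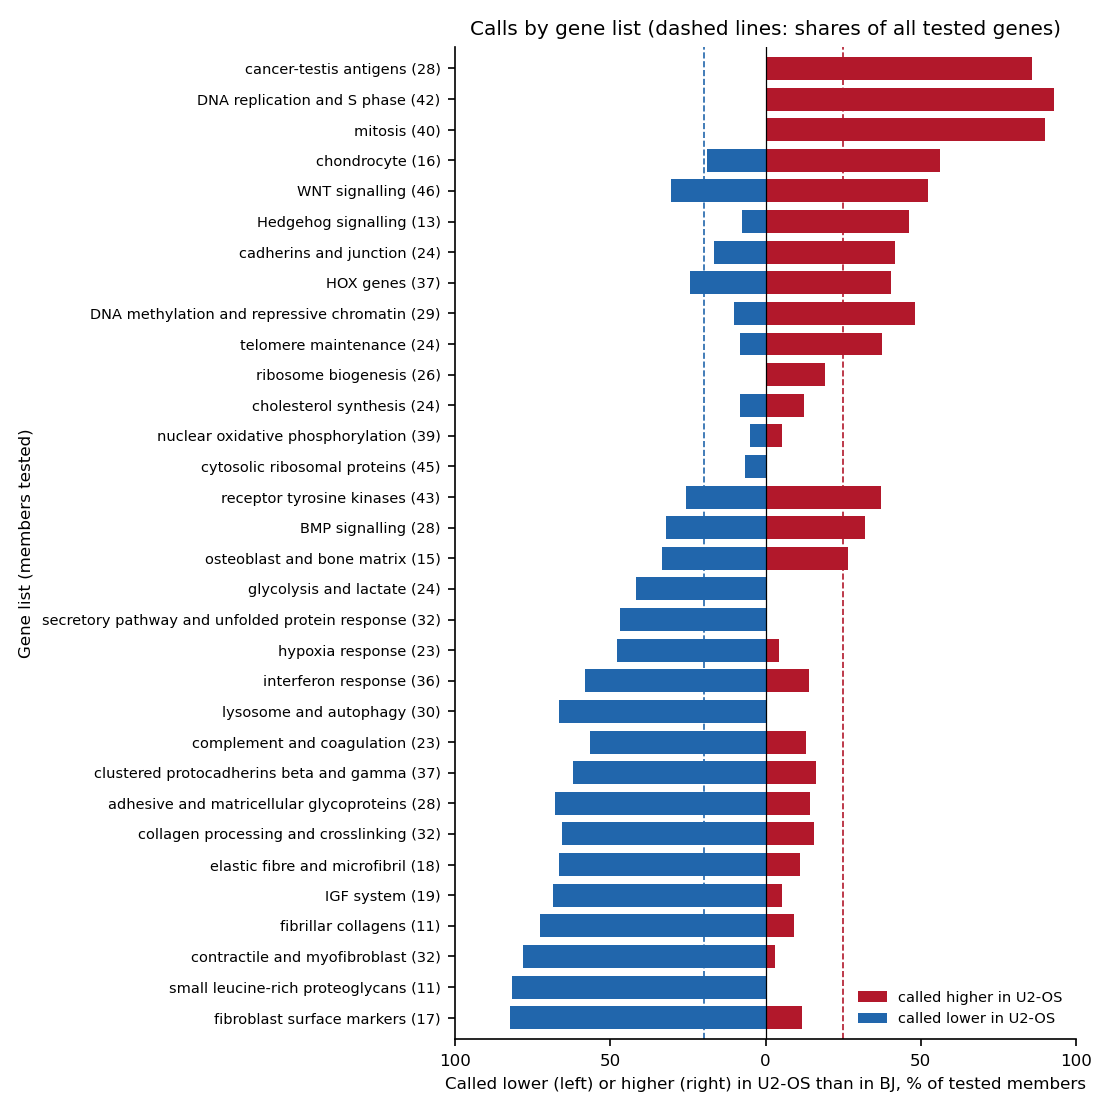
Share of tested members of 32 gene lists called higher (red, to the right) or lower (blue, to the left) in U2-OS than in BJ, with the number tested in brackets and the shares of all tested genes (24.9% and 19.9%) as dashed lines. The bars of cancer-testis, S phase and mitosis genes lie to the right alone, and those of contractile and fibroblast surface genes mainly to the left.

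Of the 13 genes encoded by mitochondrial DNA, 11 were called lower and none higher (median -1.31), and under library totals 3 were. The count lower was 11 without BJ replicate 1 and 7 when any other of the 6 libraries was left out. Mitochondrial counts took 1.39, 1.33 and 1.27% of each U2-OS library, against 2.12, 2.65 and 2.99% of each BJ library. MT-CO1, cytochrome oxidase subunit 1, stood at 5009.9, 5000.2 and 4324 TPM in U2-OS, against 8597, 12551 and 13718 TPM in BJ (log2 fold change -1.82 ± 0.44, adjusted p = 0.0011). Nuclear genes of oxidative phosphorylation had 2 higher and 2 lower of 39, with a median of -0.22 that turned to 0.33 under library totals. The largest change among them was in COX7A1, a muscle-type cytochrome oxidase subunit, at 0.288, 0.328 and 0 TPM in U2-OS, against 53.4, 71.7 and 66.6 TPM in BJ (3 counts over the U2-OS libraries and 1535 over the BJ libraries, adjusted p = 3.2e-11). Cytosolic ribosomal proteins had 3 lower and none higher of 45, with a median of -0.51 and 3 to 6 lower with 1 library left out, which was 0.058 under library totals with 1 higher and none lower. Both lists had fewer calls than the 44.8% of all tested genes.

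Secretory and lysosomal genes were lower under both scalings. In the secretory pathway list, 15 of 32 were lower and none higher (8 lower and 1 higher under library totals). CREB3L1, a membrane-bound factor that activates collagen genes, stood at 12.5, 11.2 and 8.04 TPM in U2-OS, against 131, 183 and 152 TPM in BJ (log2 fold change -4.69 ± 0.38, adjusted p = 2.2e-10), and SEC24D, a coat subunit for procollagen export, at 20.5, 21.4 and 18.7 TPM in U2-OS, against 78.5, 119.6 and 129 TPM in BJ (log2 fold change -2.91 ± 0.23, adjusted p = 9.1e-11). Lysosome and autophagy genes were lower in 20 of 30 and higher in none (13 and 2 under library totals). CTSK, the collagen-degrading cathepsin K, averaged 1.88 ± 0.466 TPM in U2-OS and 98.6 ± 16.8 TPM in BJ (log2 fold change -6.53 ± 0.35, adjusted p = 1.4e-13). In glycolysis 10 of 24 were lower and none higher (6 and 3 under library totals). SLC16A3, a lactate exporter, stood at 5.39, 2.77 and 2.01 TPM in U2-OS, against 262, 241.8 and 139.9 TPM in BJ (log2 fold change -6.42 ± 0.42, adjusted p = 3.8e-12). Hypoxia response genes were lower in 11 of 23 and higher in 1, and EPAS1, hypoxia-inducible factor 2 alpha, averaged 7.45 ± 1.68 TPM in U2-OS and 129 ± 34.8 TPM in BJ (log2 fold change -4.95 ± 0.28, adjusted p = 3.1e-13). Nucleotide synthesis genes ran the other way, 7 of 20 higher and 1 lower, among them PPAT, the first enzyme of purine synthesis (34.5 TPM in U2-OS and 4.34 TPM in BJ). The count higher was 3 without U2-OS replicate 3, 4 without BJ replicate 2 or 3, 3 with glmTreat and 12 under library totals.

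Set among all 9 lines by their mean TPM, COL1A2, PODN and OSR2 were highest in BJ, and TUBA3C, HAPLN1 and CCNE1 highest in U2-OS. These genes were chosen after their values were seen, and the orders have no test.

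Transcript usage differed for a small share of genes. Of 6218 genes at 10 TPM or more in both lines with at least 2 transcripts, 181 (2.91%) had 1 top transcript in all 3 U2-OS libraries and another in all 3 BJ libraries. With 3 against 3 libraries the smallest two-sided p of an exact permutation test is 0.1, so the shares, each a percentage of the gene's summed TPM, are descriptions. Transcript ENST00000478255 of AK5, a nucleotide kinase, made up 97, 96.4 and 92.4% in U2-OS, against 1.79, 0 and 0% in BJ. Transcript ENST00000538786 of ATL3, an endoplasmic reticulum GTPase, made up 73.5, 72.2 and 72.8% in U2-OS, against 7.6, 0 and 0.318% in BJ. For NET1, a guanine nucleotide exchange factor, ENST00000355029 made up 72.8, 83.4 and 67.6% in U2-OS, against 3.01, 1.94 and 1.01% in BJ. For PSME2, a proteasome activator, ENST00000615264 made up 81.7, 86.5 and 83.8% in U2-OS, against 19.2, 20.2 and 11% in BJ. In these the lines were far apart and the libraries of each line close together.

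TGFBI-201, of a matrix protein induced by TGF-beta, made up 3.9, 2.9 and 2.83% in U2-OS, against 84.4, 61.7 and 57.5% in BJ, and ENST00000602569 of IFITM2, an antiviral membrane protein, 0, 0 and 0% in U2-OS, against 52, 70.5 and 73.9% in BJ. For C8orf59, ENST00000612977 made up 0.237, 0 and 0.409% in U2-OS, against 70.6, 59.9 and 60.8% in BJ. For PAFAH1B1, a dynein regulator, ENST00000397195 made up 12, 12.3 and 10.8% in U2-OS, against 51.2, 86.2 and 87.5% in BJ, and here BJ replicate 1 lay between the lines. Leaving that library out raised the share of such genes to 8.01%, against 3.36% to 4.12% when any other library was left out. For COL5A1, a collagen V chain, ENST00000371817 made up 88.9, 86.7 and 86.3% in U2-OS, against 21.9, 26.7 and 28.6% in BJ, and for COL6A3, a collagen VI chain, ENST00000353578 made up 60.4, 63.3 and 65.9% in U2-OS, against 33.8, 18.9 and 18.6% in BJ. FLNA-203, of the actin cross-linker filamin A, made up 64.7, 63.5 and 49.4% in U2-OS, against 23.9, 13.8 and 11.9% in BJ. For CD44, the hyaluronan receptor, ENST00000263398 made up 27.2, 38.5 and 37.6% in U2-OS, against 48.6, 86.8 and 87.8% in BJ, with BJ replicate 1 again nearest to U2-OS.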

How the data were processed

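Poly-A RNA was sequenced from 9 cell lines with a stranded TruSeq mRNA kit, per the labels' protocols. The authors deposited, for each library, an estimated count and a TPM for every transcript. Kallisto 0.43.1, GRCh38 and CASAVA 1.8 are named, without roles, per the submitters' processing notes, and the annotation of the index is not given in the sources used here. Of 176241 transcripts 16354 (9.28%) had no match in GENCODE 29 and were left out, and the others were summed to genes.

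Summed estimated counts were rounded and tested in edgeR 4.0.16 (R 4.3.3; robust quasi-likelihood test, trimmed-mean factors, genes kept by edgeR's own filter on low counts) in a fit of all 27 libraries. SE is the log2 fold change divided by the root of the F statistic, p-values are Benjamini-Hochberg adjusted over 17220 genes, and a call needs an adjusted p under 0.05 and a 2-fold difference. Where a line had 1 to 3 counts over its libraries, rounded counts stand in place of a fold. Lists are described by counts and medians, with no set test. On simulated data, 93.5% of 200 genes changed 4-fold were called in this comparison, with 12 false calls over 17220 genes. The changed genes were not of low count and were split evenly between directions. The simulation held no shift in scaling and no outlying library, and the real data had 44.8% of genes called. Its false calls therefore do not give the error rate of the real calls. Counting precision follows the depths given above. TPM levels are means ± SD of the deposited values.

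Alternatives were DESeq2 1.42.0, limma 3.58.1 on log2(TPM + 1), other normalizations, filters and sets of libraries. The cell lines, gene lists and tests were chosen with earlier results of these data known. Named genes are those of largest change overall and, up to 4 each way, in each list, all members of the lists on bone, telomeres, 9p21 and cell cycle entry, the 10 most abundant genes of each line, and the 8 largest transcript switches. The text gives a part of these genes, and the others are not reported here. Some other members are named as examples, chosen after their values were seen. Promoter sequences are from RefSeq on GRCh38.p14. The proteome mentioned in the design text is not analysed here.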

Additional observations from a re-analysis of the deposited data

How the results depend on the processing

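The count of genes higher in U2-OS (4280) stayed within 1.5 times under every alternative run (3124 to 6323). The count of genes lower (3430) was 1701 with limma on log2(TPM + 1) and 2241 under library totals, so the balance of directions depends on scaling, and 74.3% of limma's calls were higher. Leaving out 1 library gave 4160 to 4399 higher and 3290 to 3540 lower. The share of genes with a transcript switch (2.91%) was 2.41% at a minimum of 50 TPM and 3.36 to 8.01% with a library left out, 8.01% being without BJ replicate 1; by construction, fewer libraries then have to share a top transcript. With the P number of the titles as a replicate block, 4144 genes were higher and 3450 lower. Deviations of libraries sharing a number correlated at -0.195 (P5) and 0.054 (P6), so the numbers were not taken to pair them. Of 7580 values over 476 named genes and their alternatives, 7297 kept direction and side of the threshold, 254 fell below it, 27 passed it and 2 reversed. The reversals were WNT3, -5.10 as computed here and between -7.37 and 2.31 with a library left out, 2.31 being without BJ replicate 3, and IGF2BP3, -1.37 as computed here and 0.19 with limma on log2(TPM + 1); the cause was not tested. TPM rescaled without mitochondrial genes moved 5 of 30 mean levels of the most abundant genes by more than 1 SD, and taking all tested genes in place of protein-coding ones moved 9 of 23 chromosome medians.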

Other observations

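Adhesion genes of the cell surface changed in kind. Cadherins and junction genes were higher in 10 of 24 and lower in 4 (16 and 4 under library totals). CADM3, a nectin-like adhesion protein of neurons, stood at 80.1, 72.4 and 33 TPM in U2-OS, against 0, 0 and 0.0255 TPM in BJ (9693 counts over the U2-OS libraries and 1 over the BJ libraries, adjusted p = 6.2e-13), and NCAM1, the neural cell adhesion molecule, at 46.9, 42.2 and 21.3 TPM in U2-OS, against 0.673, 0.4553 and 0.398 TPM in BJ (log2 fold change 5.68 ± 0.39, adjusted p = 9.5e-12). CDH11, a cadherin of mesenchymal cells, was lower, at 29.8, 20.6 and 16.8 TPM in U2-OS, against 217.1, 139 and 154 TPM in BJ (log2 fold change -3.68 ± 0.27, adjusted p = 2.9e-11). Clustered protocadherins, which share exons within a cluster so that reads may be split between them, were higher in 6 and lower in 23 of 37. All of those called higher were of the beta cluster, among them PCDHB5 (15.4 TPM in U2-OS and 0.4 TPM in BJ), and the gamma genes that were called were lower, among them PCDHGB7 (0.174 TPM in U2-OS and 11.2 TPM in BJ) and PCDHGC3 (19.1 TPM in U2-OS and 104 TPM in BJ).

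Imprinted genes were higher in 7 and lower in 6 of 23, not far from the 24.9% and 19.9% of all tested genes. MEST, an imprinted gene of mesodermal tissue, stood at 0.314, 0 and 0.0279 TPM in U2-OS, against 44.7, 42.2 and 75.2 TPM in BJ (3 counts over the U2-OS libraries and 5127 over the BJ libraries, adjusted p = 1.6e-14), and NDN, necdin, at 104, 101 and 81.7 TPM in U2-OS, against 14.3, 24.2 and 23.8 TPM in BJ (log2 fold change 1.66 ± 0.28, adjusted p = 5.1e-05). In the list of YAP and TEAD targets, 4 were higher and 12 lower of 27. ANKRD1 stood at 192, 193 and 205 TPM in U2-OS, against 3.13, 1.48 and 1.18 TPM in BJ (log2 fold change 6.18 ± 0.48, adjusted p = 1.0e-10), while CYR61, a matricellular protein, stood at 284, 234.1 and 383 TPM in U2-OS, against 662, 825 and 869 TPM in BJ (log2 fold change -1.92 ± 0.32, adjusted p = 1.5e-05). Growth factor ligands were lower in 19 of 38 and higher in 6 (17 and 10 under library totals), with FGF2 at 8.19, 10.5 and 11.6 TPM in U2-OS, against 67.9, 107 and 115 TPM in BJ (log2 fold change -4.22 ± 0.38, adjusted p = 9.8e-10) and MDK, midkine, at 548.6, 416 and 204 TPM in U2-OS, against 39.4, 41.9 and 34.5 TPM in BJ (log2 fold change 2.77 ± 0.33, adjusted p = 1.3e-07).

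By position, medians over protein-coding genes ran from -0.27 on chromosome 13 to 0.35 on chromosome 7. Of 10 Mb windows on GRCh38, chromosome 9 from 70 to 80 Mb had 16 of 28 genes lower and a median of -1.58, and chromosome 18 from 20 to 30 Mb had 14 of 26 lower and a median of -1.20. Next to it, chromosome 18 from 10 to 20 Mb had 15 of 22 higher and a median of 1.47. The highest window median over protein-coding genes, 1.71, was on chromosome X from 140 to 150 Mb, with 10 of 23 higher and 3 lower. Over all tested genes it was 2.06, on chromosome 9 from 60 to 70 Mb, with 21 of 37 higher and 3 lower. These windows were named for their values and have no test.

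The TPM-weighted mean length of a gene's transcripts, a measure chosen after the data were seen, was longer in every U2-OS library than in every BJ library for 496 of 6218 genes and shorter for 1551. Its median over genes was 2028, 2053 and 1999 bases in U2-OS, against 2050.0, 2171 and 2154 bases in BJ. BJ replicate 1, which also had the longest fragments, was the BJ library nearest to U2-OS.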
